A study of Homo sapiens with 14 samples.

Results

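The genes described here are the clustered core and linker histone genes, taken as every symbol that starts with HIST1H, HIST2H, HIST3H or HIST4H among the nearest-gene names of the deposited ChIP-seq peak lists. The lists named 52 such genes out of 24510 named genes in all. The cells were HL60, an established cell line from a human acute myeloid leukaemia, and 4 of the 14 samples were used. SKI, a transcriptional corepressor that reaches DNA through partner proteins such as SMADs, was immunoprecipitated with 1 antibody from unmodified (WT) cells in 2 samples (replicates 1 and 2, called WT 1 and WT 2), and from CRISPR/Cas9 control cells in 1 sample (called CTR). RUNX1, a DNA-binding transcription factor needed for blood cell formation, was immunoprecipitated from WT cells in 1 sample. Whether the control cells were 1 clone is not given in the sources used here. The other 10 samples, which include SKI immunoprecipitations from cells with SKI deleted and the IgG samples, were not analysed here, which leaves SKI-independent signal in the lists unmeasured. Peak lists hold no expression values, and the identity of the cells was taken from the labels.

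The clustered histone genes supply most of the histone protein that packages newly made DNA, and they are switched on as cells replicate their genome. They have no introns, and their mRNAs end in a stem-loop instead of a poly(A) tail. Genes for H2A and H2B often lie head to head and share a promoter between them, and nearly identical copies of the same histone are spread over several clusters. H4 promoters are known for an element called site II, which the factor HINFP binds, and H2B promoters for an octamer that POU2F1 recognises.

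The promoter letters are shown first for 6 genes on which the results turn. They are the 5 genes with a promoter peak of RUNX1 and, for contrast, HIST2H2AA4, which had SKI peaks alone. Each window holds the 250 bases just before the annotated start of the RefSeq gene on GRCh38.p14 and is written 5′ to 3′ on the strand of the gene. Capitals mark, on either strand, the RUNX core (TGTGGT or TGCGGT), the CCAAT box (CCAAT, or ATTGG on the other strand), the TATA box (TATAAA, or TTTATA on the other strand), the octamer (ATTTGCAT) and the core of H4 site II (GGTCCG). These positions are on GRCh38.p14, whereas every peak position further on is on hg19 as listed, and the builds were not converted into each other.
HIST1H4D (chr6:26189113-26189362, minus strand): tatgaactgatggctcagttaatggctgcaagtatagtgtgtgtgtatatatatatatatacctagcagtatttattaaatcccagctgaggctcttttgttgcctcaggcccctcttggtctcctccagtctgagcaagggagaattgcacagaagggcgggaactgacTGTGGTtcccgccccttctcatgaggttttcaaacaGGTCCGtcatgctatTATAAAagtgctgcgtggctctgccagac
HIST1H4B (chr6:26027284-26027533, minus strand): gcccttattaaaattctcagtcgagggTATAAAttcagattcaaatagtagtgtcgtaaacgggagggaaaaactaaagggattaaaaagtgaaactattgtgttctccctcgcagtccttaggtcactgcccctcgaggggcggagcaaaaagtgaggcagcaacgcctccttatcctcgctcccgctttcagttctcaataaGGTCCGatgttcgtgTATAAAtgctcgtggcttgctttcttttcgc
HIST1H4E (chr6:26204360-26204609, plus strand): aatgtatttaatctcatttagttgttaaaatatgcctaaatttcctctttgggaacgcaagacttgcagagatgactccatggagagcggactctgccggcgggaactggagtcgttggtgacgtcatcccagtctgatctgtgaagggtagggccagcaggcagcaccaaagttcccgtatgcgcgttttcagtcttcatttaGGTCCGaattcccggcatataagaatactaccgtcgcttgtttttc
HIST2H4B (chr1:149861160-149861409, minus strand): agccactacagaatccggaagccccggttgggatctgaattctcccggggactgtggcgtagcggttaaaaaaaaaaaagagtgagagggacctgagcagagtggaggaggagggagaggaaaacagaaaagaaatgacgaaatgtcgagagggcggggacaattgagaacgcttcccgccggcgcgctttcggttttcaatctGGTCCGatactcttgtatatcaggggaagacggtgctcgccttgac
HIST1H2BC (chr6:26123927-26124176, minus strand): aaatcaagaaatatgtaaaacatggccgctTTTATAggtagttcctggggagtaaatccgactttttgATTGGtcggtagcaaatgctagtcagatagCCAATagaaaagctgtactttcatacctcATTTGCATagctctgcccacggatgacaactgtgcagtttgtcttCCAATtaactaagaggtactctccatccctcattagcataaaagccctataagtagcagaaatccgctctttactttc
HIST2H2AA4 (chr1:149850811-149851060, plus strand): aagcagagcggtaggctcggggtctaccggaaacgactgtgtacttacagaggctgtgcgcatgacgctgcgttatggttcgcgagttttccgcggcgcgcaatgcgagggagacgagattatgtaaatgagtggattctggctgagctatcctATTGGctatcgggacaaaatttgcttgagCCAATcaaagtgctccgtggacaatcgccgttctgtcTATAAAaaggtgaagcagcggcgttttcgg
In these windows the 4 H4 genes each held 1 site II core, at bases -46 to -41 or -44 to -39 before the start. HIST1H4D alone among the 6 held a RUNX core, at bases -80 to -75. HIST1H2BC held 3 CCAAT boxes and 1 octamer, and HIST2H2AA4 held 2 CCAAT boxes.

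Over all coding histone genes with a RefSeq promoter window, 66 of 71, the RUNX core was present in 11 windows (16.7%), against 16.1% of the 27239 other windows of the same length. The site II core was present in 22.7% of histone windows, against 9.3% of the others, and 12 of the 15 windows with it belonged to H4 genes, which had 13 windows. The CCAAT box was present in 84.8% of histone windows, against 32.9% of the others. It was found in every H1, H2A, H2B and H3 window and in 3 of the 13 H4 windows. The octamer was present in 39.4% of histone windows, against 1.57% of the others, and 14 of the 18 H2B windows held it. For SMADs, the short element CAGACA was present in 10.6% of histone windows, against 13.6% of the others, and the palindrome GTCTAGAC was in none, against 0.176% of the others. The RUNX core and the short SMAD element were thus about as frequent as elsewhere, while the CCAAT box, the octamer and the H4 core were more frequent. A match of letters is a description and not a binding site.

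The lists differed in length, with 54841 peaks in WT 1, 14431 in WT 2, 14019 in CTR and 5581 in the RUNX1 list. Total sequencing depth is not given in the sources used here, so a missing peak cannot be read as absent binding. The authors' class "tss", set to 1250 bp around a transcription start site (TSS) per the file headers, held 19311, 7566 and 6733 SKI peaks and 1313 RUNX1 peaks in that order of lists. Tags are the reads counted in a peak. Fold enrichment over background was computed by the authors for each peak and serves only to rank peaks within their list. Each gene is either listed or not in a list, and no test between samples was made. WT 1 and WT 2 are the only samples of 1 kind, and nothing in the labels says that they came from separate cultures.

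Histone genes were named by 64 peaks in WT 1, 42 in WT 2, 32 in CTR and 6 in the RUNX1 list. Most of these peaks lay at promoters. The tss class took 68.8% of histone peaks in WT 1, 92.9% in WT 2, 93.8% in CTR and 83.3% in the RUNX1 list. Among the peaks of all other genes it took 35.2%, 52.3%, 47.9% and 23.5% in the same order of lists. A promoter peak was found at 39 histone genes in WT 1, 33 in WT 2, 30 in CTR and 5 in the RUNX1 list.

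RefSeq holds 90 genes of these name families, 71 of them protein-coding and 19 pseudogenes, and all 52 listed names matched one. Coding histone genes had a promoter peak in 45.1% of cases in WT 1 (32 of 71), where the background over 20056 protein-coding genes was 53.9%. In WT 2 they had one in 43.7% of cases (31 of 71), against 24.2% of all protein-coding genes. In CTR they had one in 40.8% of cases (29 of 71), against 22.4%. In the RUNX1 list the share was 7.04% (5 of 71), against 4.22%. The histone share was therefore above the background in WT 2 and CTR and below it in WT 1, the long list. A promoter peak in all 3 SKI lists was found at 17 coding histone genes (23.9%), against 16.3% of all protein-coding genes, and at the pseudogene HIST1H4PS1, which makes 18 in all. With each list cut to its 5581 peaks of highest −log10 p, that count was 3. No share of all protein-coding genes was taken at that cut, so this drop cannot be set against that of other genes.

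A peak was credited to the nearest gene only. In the clusters this left genes unnamed, as 28 coding histone genes were named in no list and 17 of these lay next to a member with a SKI promoter peak in the RefSeq gene order. The 12 unnamed H2B genes made up the largest part, and 8 of them had such a neighbour. Genes were also counted wherever a peak of any name reached within 1000 bp of their TSS, as rebuilt from the deposited distances. Histone genes found in all 3 SKI lists then numbered 28 instead of 18. Only genes named by a peak have a rebuilt TSS, and no share of all genes was taken for this count.

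The kinds of histone gene differed in how often they were listed. H4, which forms the core of the nucleosome together with H3, had a promoter peak at 12 of 15 coding genes in WT 1, 13 in WT 2, 11 in CTR and 4 in the RUNX1 list. H3 had one at 7 of 15 genes in WT 1, 7 in WT 2 and 8 in CTR. H2A, a partner of H2B in the nucleosome, had one at 6 of 17 genes in WT 1, 8 in WT 2 and 6 in CTR. H2B was listed least, with 4 of 18 genes in WT 1, 2 in WT 2 and 1 in CTR. Linker histone H1, which binds where DNA enters and leaves the nucleosome, had a promoter peak at 3 of 6 genes in WT 1, 1 in WT 2 and 3 in CTR. By name, no H1, H2A or H3 gene had a RUNX1 promoter peak, and 1 H2B gene had one. Counting RUNX1 peaks of any name within 1000 bp of a rebuilt TSS gave 5 H4 genes, 1 H2A gene and 1 H2B gene, and no H1 or H3 gene. In all 3 SKI lists the count was 10 of 15 for H4 (66.7%), 4 of 15 for H3 (26.7%), 2 of 17 for H2A (11.8%), 1 of 6 for H1 (16.7%) and 0 of 18 for H2B. With lists cut to that equal length of 5581 peaks, the H4 count was 2, again without a share of all genes at that cut. Against rebuilt TSSs the same counts were 11 for H4, 7 for H3, 5 for H2A, 1 for H1 and 2 for H2B. Only genes named by a peak have a rebuilt TSS: 13 of 15 for H4, 10 of 15 for H3, 11 of 17 for H2A, 3 of 6 for H1 and 6 of 18 for H2B. These counts therefore cannot check the order of the kinds.

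**Figure D1:**
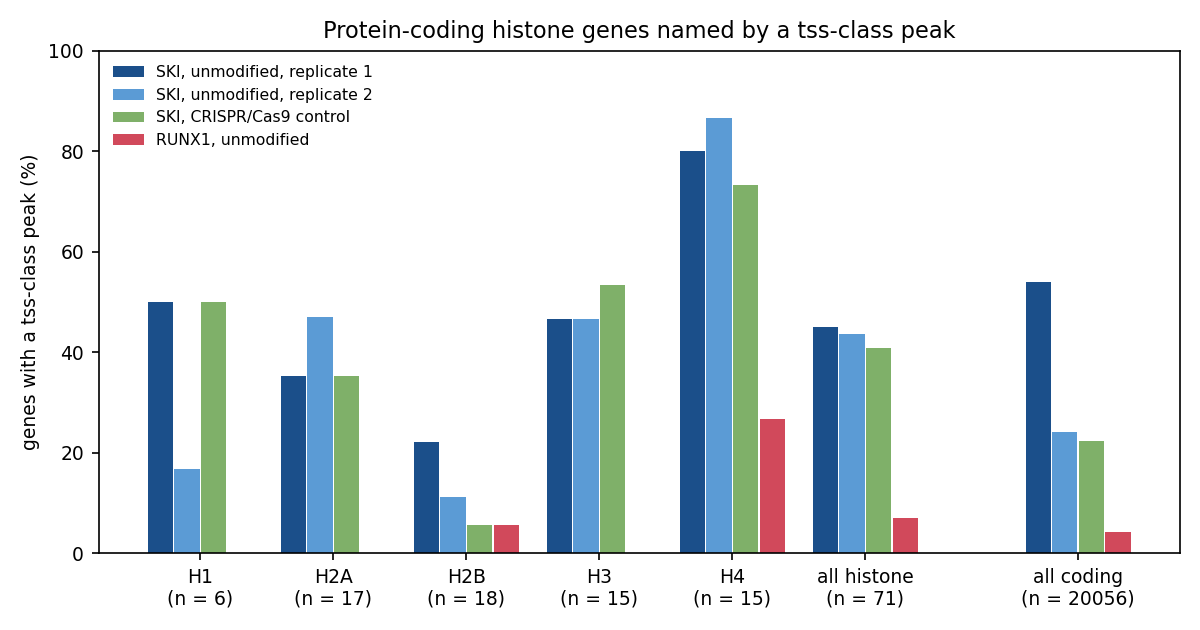
Share of protein-coding histone genes named by a promoter (tss-class) peak, in percent of the RefSeq genes of each kind (n below each group), with the share over all 20056 protein-coding genes at the right. H4 bars reach 80.0%, 86.7% and 73.3% in WT 1, WT 2 and CTR and 26.7% in the RUNX1 list, while H2B bars stay at or below 22.2%.

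Among H4 genes, HIST1H4D was the member whose lowest rank over the SKI lists was highest. It had 853 tags in WT 1, 236 in WT 2 and 208 in CTR, with fold enrichments of 58.16, 33.94 and 50.69. Its SKI peaks had deposited distances to the TSS of 2, -4 and 6 bp (negative is upstream). These distances do not match the listed summits exactly, as TSS positions rebuilt from both spread over 82 bp for this gene. Its percentiles of tags were 95.9, 97.5 and 94.1. A percentile here is the share of the other, non-histone promoter peaks of the same list that had fewer tags, with ties split evenly. HIST1H4D was thus near the top of each SKI list by tags and by fold enrichment, which ranked at 91.0, 97.1 and 98.2.

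HIST2H4B, on chromosome 1, has a near-identical copy, HIST2H4A, so its values are uncertain. It had 1357 tags in WT 1, 161 in WT 2 and 297 in CTR, at percentiles 98.9, 93.6 and 97.3. Its fold enrichments of 71.5, 7.05 and 28.1 ranked at percentiles 94.7, 28.4 and 92.3, so the rank by fold was low in WT 2 alone. HIST1H4L had 482 tags in WT 1, 94 in WT 2 and 66 in CTR, and its lowest percentile was 54.6, in CTR. HIST1H4K (551, 111 and 51 tags), HIST1H4H (561, 101 and 49) and HIST1H4C (400, 66 and 49) ranked between 60.8 and 89.5 in WT 1 and WT 2. All 3 were below the middle in CTR, at percentiles 37.8, 34.8 and 34.8.

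Some H4 promoters were listed in all 3 lists and yet ranked low in CTR. HIST1H4A had 443 tags in WT 1, 62 in WT 2 and 33 in CTR, at percentiles 84.1, 56.2 and 2.51. HIST1H4I had 386, 57 and 36 tags, at percentiles 80.2, 49.9 and 9.42. As a kind, H4 promoter peaks had a median percentile of 86.2 in WT 1, 79.6 in WT 2 and 36.3 in CTR by tags. By fold enrichment the medians were 77.2, 30.7 and 68.4, so neither measure kept H4 high in every list. HIST1H4F and HIST1H4G were the H4 genes named in no list.

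Among H3 genes, HIST1H3B had 579 tags in WT 1, 76 in WT 2 and 85 in CTR, at percentiles 90.0, 69.8 and 68.5. Its deposited distances to the TSS were 33, 15 and -11 bp. HIST1H3D had 944, 82 and 63 tags, at percentiles 96.8, 73.3 and 51.8. HIST1H3J was the lowest-ranked H3 gene of those found in all 3 SKI lists, with 38 tags in CTR (percentile 14.3). By name it had 2 promoter peaks in WT 1 (283 and 345 tags) and 2 in WT 2 (59 and 46 tags). They were credited to 2 transcripts of this gene, with TSSs rebuilt at positions 27858552 and 27860860. The peaks of 345 and 46 tags lay at the second of these. HIST1H2AM, which was named in no list, lies next to HIST1H3J in the RefSeq gene order, so whose promoter they mark is uncertain. HIST1H3C, with 566 tags in WT 1, 39 in WT 2 and 60 in CTR, was the remaining H3 gene found in all 3.

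The linker histone gene HIST1H1E had 825 tags in WT 1, 82 in WT 2 and 156 in CTR, at percentiles 95.5, 73.3 and 88.8. It was the H1 gene found in all 3 SKI lists. HIST1H1C had promoter peaks of 442 and 64 tags in WT 1 and 1 of 110 tags in CTR, and HIST1H1D had 246 tags in WT 1 and 52 in CTR, and neither had a peak in WT 2. HIST1H1A, HIST1H1B and the testis gene HIST1H1T were not named. The other testis-type genes, HIST1H2AA, HIST1H2BA and HIST3H3, were not named either, so 0 of 4 such genes had a peak of their name in any list. Over all coding histone genes, 28 of 71 were named in no list. HIST1H1T lay next to a member with a SKI promoter peak in the RefSeq gene order, and the other testis-type genes did not.

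H2A promoters found in all 3 SKI lists were HIST1H2AH, with 507 tags in WT 1, 57 in WT 2 and 46 in CTR, and HIST2H2AA4, with 1318, 99 and 122, whose values are uncertain because HIST2H2AA3 is a near-identical copy. HIST2H2AA4 ranked at percentiles 98.8, 81.4 and 82.5 by tags but at 65.1, 14.7 and 48.4 by fold enrichment. Its WT 1 peak was 4529 bp wide, and within it WT 2 had separate peaks at HIST2H2AA4 and at HIST2H3A. The H2B genes with a promoter peak were HIST1H2BC, HIST1H2BD, HIST1H2BG, HIST2H2BF and HIST3H2BB. Of these, HIST1H2BC ranked highest, with 881 tags in WT 1 (percentile 96.2) and 85 in WT 2 (75.1). In CTR the peak over that region, of 115 tags, was named to its neighbour HIST1H2AC.

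RUNX1 had 6 peaks named to histone genes, 5 of them at promoters and 4 of these at H4 genes. At HIST1H4D the RUNX1 peak had 58 tags and a fold enrichment of 20.63, with a deposited distance to the TSS of -20 bp. It overlapped a SKI peak of each list, with listed summits 58, 4 and 28 bp apart in WT 1, WT 2 and CTR. The deposited distances of those SKI peaks, 2, -4 and 6 bp, give other gaps. The window of HIST1H4D, printed above, holds a RUNX core, as do 11 of the 66 histone windows in all. No other of the 5 promoters with a RUNX1 peak held one in its window. The windows end at the annotated start, and the RUNX1 peaks at HIST1H2BC and HIST1H4E lay 618 and 698 bp past the TSS. For these genes the letters under the peak were not searched. By tags the RUNX1 peak at HIST1H4D ranked at percentile 56.5 of the other RUNX1 promoter peaks, the highest of the 5.

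The other RUNX1 promoter peaks ranked below the middle by tags. HIST2H4B had 42 RUNX1 tags (fold 8.16, deposited distance -36 bp) and HIST1H4B had 35 (fold 3.8, deposited distance 138 bp), at percentiles 28.3 and 6.23. HIST1H4B also had SKI peaks of 408 tags in WT 1, 73 in WT 2 and 41 in CTR. Their listed summits lay 366, 309 and 300 bp from that of RUNX1. Their deposited distances of 49, 9 and 69 bp were nearer to that of the RUNX1 peak, so the measures differ. HIST1H2BC had 38 RUNX1 tags (fold 6.73, percentile 15.2) at a deposited distance of 618 bp. The listed RUNX1 summit lay 6 and 10 bp from the SKI summits of WT 1 and WT 2. The deposited distances of those SKI peaks were 732 and 687 bp, so the measures differ here too. All of these distances lie past the TSS and outside the window printed for the gene.

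At HIST1H4E the RUNX1 peak had 44 tags and a fold enrichment of 23.81, the highest fold of the 5. Its deposited distance was 698 bp past the TSS. The WT 1 SKI peak of 1156 tags overlapped it, at a distance of 1514 bp. WT 2 and CTR had no SKI peak over it. They had peaks of class exon further on, at distances of 1509 and 1527 bp and with 72 and 88 tags. WT 2 had a further promoter peak of 103 tags at -122 bp. SKI peaks at the exon distance past the TSS thus recurred in all 3 lists, and the RUNX1 distance lay between the TSS and that position.

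The sixth RUNX1 peak was intergenic, 9191 bp from the pseudogene HIST1H3PS1, with 46 tags and a fold enrichment of 4.66. SKI peaks overlapped it in each list, with 224 tags in WT 1, 61 in WT 2 and 30 in CTR. One more RUNX1 peak, of 48 tags and fold 3.53, lay at HIST2H4A but was named to the transcript RP11-196G18.23, as was the WT 1 SKI peak there, of 1317 tags. It falls outside the naming rule and was chosen after its values were seen.

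Of the histone SKI promoter peaks, a RUNX1 peak overlapped 5 of 44 in WT 1 (11.4%, exact 95% Clopper-Pearson interval 3.79 to 24.6), against 6.8% of other promoter peaks. In WT 2 it was 5 of 39 (12.8%, 4.3 to 27.4), against 12.8%, and in CTR 5 of 30 (16.7%, 5.64 to 34.7), against 15.6%. The shares of other peaks lie inside each interval, so no difference was detectable with these numbers. The intervals cover counting error only and treat neighbouring peaks as independent. With summits required within 250 bp of each other, 2 of these peaks remained in WT 1, 3 in WT 2 and 2 in CTR. No share of other promoter peaks was taken under that rule, so this drop cannot be set against theirs.

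Histone promoter peaks were also ranked as a whole. The median number of tags was 377 at histone promoters and 163 at other promoters in WT 1, 70 and 57 in WT 2, 61.5 and 61 in CTR, and 42 and 53 in the RUNX1 list, each pair given in that order. The median percentile by tags was 79.5 in WT 1, 64.7 in WT 2, 50.5 in CTR and 28.3 for RUNX1, where 50 is the middle of the other promoter peaks. In the full lists, histone promoters therefore stood high in WT 1, somewhat above the middle in WT 2 and at the middle in CTR. Without the duplicated HIST2 genes the CTR median was 36.3. With each list cut to equal length, the medians by tags were 66.3 in WT 1, 50.2 in WT 2 and 57.5 in CTR. WT 2 then stood at the middle, below CTR. Single peaks covered nearly the whole scale, with percentiles of 3.05 to 98.9 in WT 1, 4.39 to 97.5 in WT 2 and 1.35 to 97.3 in CTR. The top 10% of the other promoter peaks was reached by 10 of 44 histone peaks in WT 1, 4 of 39 in WT 2, 2 of 30 in CTR and 0 of 5 for RUNX1.

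Width moved with the tags. Histone promoter peaks had a median width of 1697 bp in WT 1, against 1092 bp at other promoters. In WT 2 it was 606 bp at histone promoters, against 508 bp at the others, and in CTR 771.5 bp, against 749 bp. Peaks over 2000 bp wide made up 38.6% of histone promoter peaks in WT 1, against 16.7% of the others. By tags per kb of peak, the median percentile came to 63.3 in WT 1, 53.2 in WT 2, 52.8 in CTR and 13.0 for RUNX1. By fold enrichment it was 61.0 in WT 1, 34.5 in WT 2, 59.8 in CTR and 8.1 for RUNX1. With each list cut to equal length, the medians by fold enrichment were 27.7 in WT 1, 16.0 in WT 2 and 38.5 in CTR, all below the middle. The rank above the middle in WT 2 was thus seen by tags in the full list and not by fold enrichment. The part that width plays in the result was not tested.

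**Figure D2:**
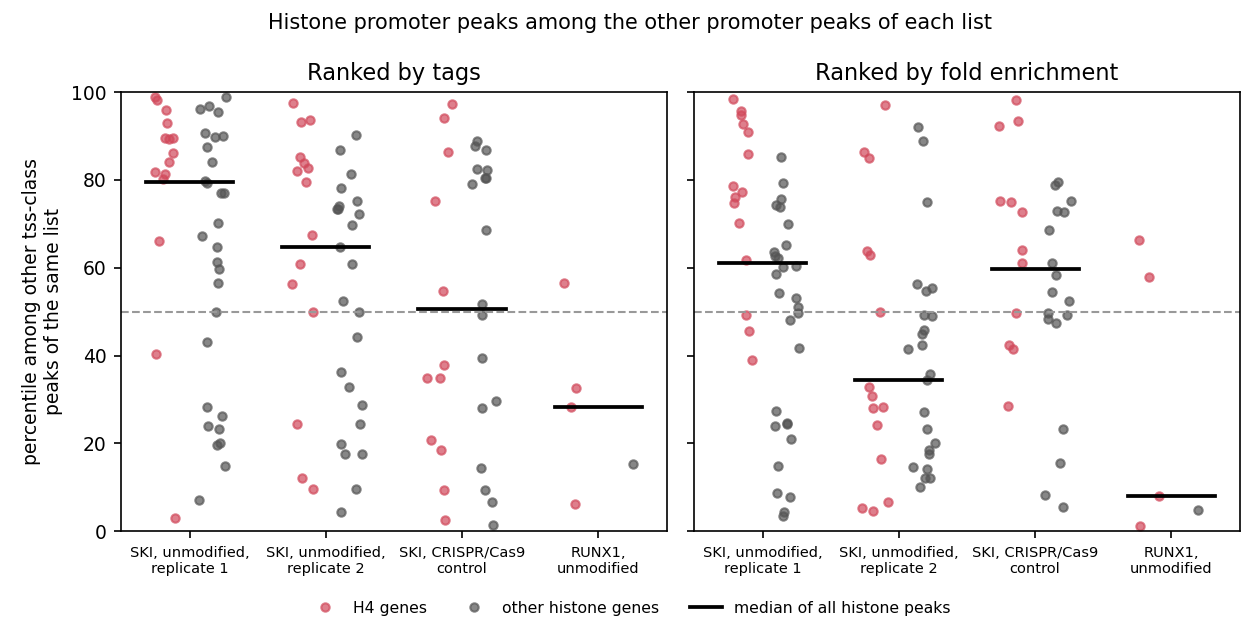
Percentile of each histone promoter peak among the other promoter peaks of its list, by tags at the left and by fold enrichment at the right, with H4 genes and other histone genes as separate points and a bar at the median of all histone peaks. The bars by tags stand at 79.5, 64.7, 50.5 and 28.3, and those by fold enrichment at 61.0, 34.5, 59.8 and 8.1.

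By deposited distance, histone promoter peaks lay mostly just past the TSS. In WT 1, 75.0% of them were downstream of the TSS, against 43.3% at other promoters, and the median distance was 79.5 bp, against -11 bp. In WT 2, 66.7% of histone peaks were downstream, against 45.1%, with median distances of 24 bp at histone promoters and -7 bp at the others. In CTR, 86.7% were downstream, against 49.7%, with medians of 82 bp and 0 bp in the same order. A downstream shift of the deposited distance was therefore seen in each of the 3 SKI lists. TSS positions rebuilt from distance and summit spread over 82 bp for HIST1H4D and 277 bp for HIST1H4B. The shift is as small as these spreads, and a shift of the summits themselves was not measured. Histone peaks were also closer to the TSS by this distance. In WT 1, WT 2 and CTR, 79.5%, 79.5% and 90.0% were within 250 bp, against 58.9%, 67.2% and 61.3% of other promoter peaks. For H4 genes the median distance was -17 bp in WT 1, -4 bp in WT 2 and 23 bp in CTR. The downstream distances thus belonged more to the other kinds, with medians of 180, 77 and 82 bp for H2A in the same lists.

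**Figure D3:**
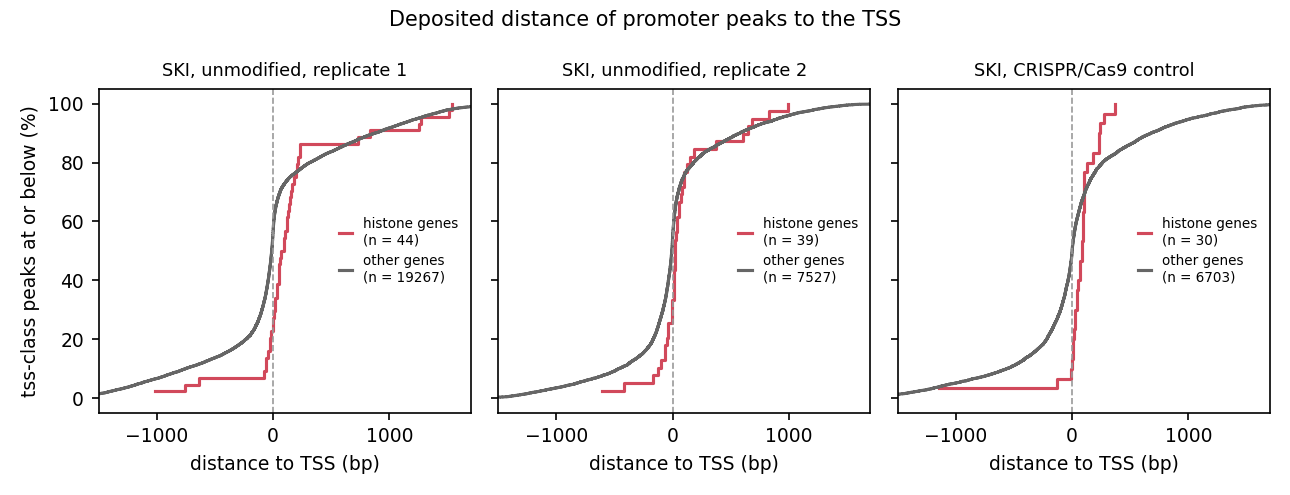
Cumulative share of promoter peaks, in percent, by the deposited distance to the TSS in bp, for histone genes and other genes in each SKI list. The histone curves cross the middle at 79.5, 24 and 82 bp in WT 1, WT 2 and CTR and the curves of other genes at -11, -7 and 0 bp.

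Histone peaks fell into 9 groups along the genome when gaps over 500 kb were taken as breaks, and 4 of these held most members. The largest HIST1 group, chr6:26020430-26337350, spanned 317 kb and held 20 named genes. It had 17 histone promoter peaks in WT 1, 16 in WT 2, 15 in CTR and 4 in the RUNX1 list, and no promoter peak of another gene in any list. The next HIST1 groups, chr6:27099123-27115922 with 3 genes and chr6:27763432-27861819 with 10, held no promoter peak of another gene either. In the last of these, 11 histone promoter peaks were listed in WT 1, 7 in WT 2, 6 in CTR and 0 in the RUNX1 list.

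The HIST1 and HIST2 members ranked differently by tags, over genes that were not the same in each list. HIST1 promoter peaks had a median percentile by tags of 83.0 in WT 1, 60.8 in WT 2 and 34.8 in CTR. HIST2 promoter peaks had 35.7 in WT 1, 75.2 in WT 2 and 86.4 in CTR, while HIST2H4B and HIST2H2AA4, the HIST2 genes found in all 3, stood at 98.9 and 98.8 in WT 1. By fold enrichment the medians were 66.7 in WT 1, 35.1 in WT 2 and 61.1 in CTR for HIST1, and 22.5, 34.9 and 52.4 for HIST2, so HIST2 was not above HIST1 in any list. In the list of WT 1 the row numbers skip some rows, 12.1% of those spanned by the histone groups against 27.1% of the whole list, and the reason is not given in the sources used here. Of the skipped rows in the histone groups, 7 of 13 lay in the HIST2 group, and the part they play in its lower rank was not tested.

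The HIST2 group, chr1:149398402-149863530, spanned 465 kb, held 12 named histone genes and was shared with other genes. It held 13 promoter peaks of other genes in WT 1, 7 in WT 2, 8 in CTR and 4 in the RUNX1 list. Its copies HIST2H4A and HIST2H4B were identical over all 250 bases of their promoter windows. Allowing for a start annotated a few bases apart, so were HIST2H3A and HIST2H3C over 246 bases and HIST2H2AA3 and HIST2H2AA4 over 249. Reads from such copies cannot be told apart in the promoter, so the values of all 6 genes are uncertain. In WT 2, HIST2H4A had 157 tags and HIST2H4B 161. In CTR, HIST2H4A had 141 tags and HIST2H4B 297, the latter in 1 peak 2231 bp wide. A further CTR peak of 98 tags beside that of HIST2H4A was named to RP11-196G18.23.

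The other members of this group were more varied. HIST2H3C had 3 promoter peaks of 36 to 70 tags in WT 2 and 1 of 143 tags in CTR, and HIST2H3A had 91 and 80 tags in WT 2 and 115 in CTR. HIST2H2AA3 had 134 tags in WT 2 and 121 in CTR. HIST2H2AC had 117 tags in WT 2 and 148 in CTR, and HIST2H2AB had 44 in WT 2 and, in WT 1, an intron-class peak of 122 tags. None of these had a promoter peak of its own name in WT 1. There, the listed members besides HIST2H2AA4 and HIST2H4B were HIST2H2BF (196 tags), HIST2H3D (134), and the pseudogenes HIST2H2BB (63) and HIST2H2BD (42), none of which was named in WT 2 or CTR.

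Outside the large clusters, peaks were few and most were found in WT 1 alone. On chromosome 1, WT 1 had promoter peaks at HIST2H3DP1 (54 tags), HIST2H2BA (85), HIST3H2BB (374) and HIST3H2BA (73). HIST4H4, on chromosome 12, had promoter peaks of 254 and 37 tags in WT 1 and 36 in WT 2. On chromosome 13, pseudogenes were named by intergenic peaks only. None of these had a peak in CTR or in the RUNX1 list.

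**Figure D4:**
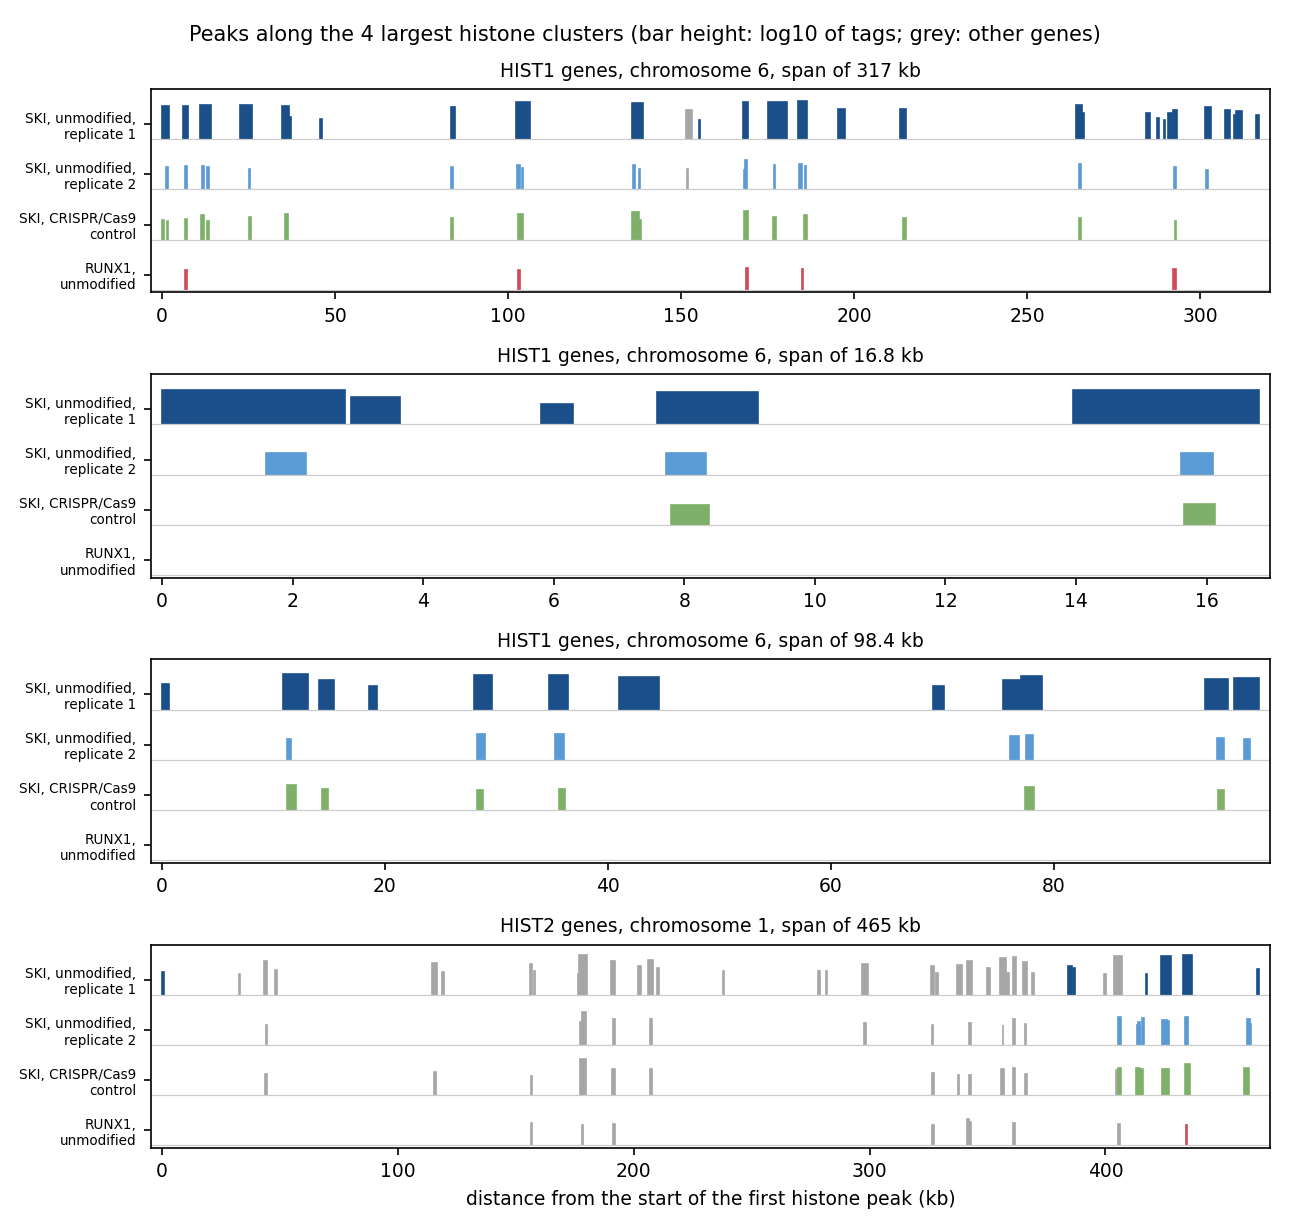
Peaks along the 4 largest histone groups, with distance from the first histone peak in kb and, in each list, bars as wide as the peak and as high as the log10 of its tags (grey, peaks named to other genes). The HIST1 groups on chromosome 6 hold almost no grey bar, whereas the HIST2 group of 465 kb is shared with other genes, and RUNX1 peaks appear in the group of 317 kb and in the HIST2 group.

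Taking overlapping SKI peaks together gave 68 sites named to histone genes, 48 of them with a promoter peak. Of those 48, 21 were present in all 3 SKI lists, 10 in 2 and 17 in 1, and 16 of the last were in WT 1 only. A RUNX1 peak overlapped 6 of the 48, all of them sites present in all 3 SKI lists. At HIST1H4E the WT 1 peak alone overlapped it, and that wide peak joined separate peaks of WT 2 and CTR into the site. No share over sites of other genes was taken. At 6 sites 1 WT 1 peak held several WT 2 peaks. Promoter peaks of other genes lay in the HIST2 group alone, so histone promoters could be set beside their neighbours there and nowhere else. In that group, histone promoters had a median percentile by tags of 49.8 in WT 1, against 76.0 for the other genes, 75.2 in WT 2, against 64.7, and 86.4 in CTR, against 77.1. By fold enrichment the histone median minus that of the neighbours was -20.3 percentile points in WT 1, -34.8 in WT 2 and -37.6 in CTR. The direction by tags thus differed between lists, and by fold enrichment it was the same in all 3. These values rest on 6 histone peaks and 13 of other genes in WT 1, 12 and 7 in WT 2, and 7 and 8 in CTR, and the WT 1 peak over HIST2H4A is counted with the other genes.

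Genes that act on the histone genes or their products were read from lists chosen for the pathway. Of 30 regulators of histone gene transcription and mRNA processing, 27 had a SKI promoter peak in WT 1, 10 in WT 2 and 7 in CTR, and 5 had one in all 3 (16.7%, against 16.3% of all protein-coding genes). In single lists the shares were 90.0%, 33.3% and 23.3%, against 53.9%, 24.2% and 22.4%. The highest ranked was E2F3, a transcription factor of S-phase entry, with 2341 tags in WT 1, 241 in WT 2 and 328 in CTR. E2F2 had 548, 69 and 112 tags, YY1 had 968, 82 and 76, and NFYB, a subunit of the factor that binds CCAAT boxes, had 374, 77 and 50. NPAT, the coactivator that links cyclin E to histone transcription, had no SKI promoter peak of its own name and a RUNX1 promoter peak of 36 tags. SLBP, which binds the stem-loop of histone mRNA, was named by no promoter peak in any list, and HINFP by 1 of 153 tags in WT 1. A peak carries the name of 1 gene only, so peaks at these promoters named to a neighbour are not counted.

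Of 25 histone chaperones, which carry histones to and from DNA, 23 had a SKI promoter peak in WT 1, 10 in WT 2 and 12 in CTR. A peak in all 3 SKI lists was found at 9 (36.0%, against 16.3%). CABIN1, a subunit of the HIRA complex, had 1772 tags in WT 1, 286 in WT 2 and 247 in CTR, together with 58 RUNX1 tags. ANP32E, a chaperone that removes H2A.Z, had 823, 76 and 76 tags, NAP1L1 had 779, 61 and 124, and SET had 533, 55 and 58. Of 18 replication-independent histone variants, 8 had a promoter peak in WT 1, 3 in WT 2 and 4 in CTR. Their shares of 44.4%, 16.7% and 22.2% were below those of all protein-coding genes in WT 1 and WT 2 and near it in CTR. A peak in all 3 SKI lists was found at 3 variants (16.7%). These were H3F3A with 1366, 187 and 244 tags, H2AFV with 970, 132 and 130 and also 99 RUNX1 tags, and H3F3B with 286, 61 and 35. Regulators and variants were thus close to the background in all 3 lists together, and chaperones were above it. The lists were chosen with earlier results of these data known, and no test was made of them.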

How the data were processed

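Peak lists of 4 HL60 ChIP-seq samples were used, 3 for SKI and 1 for RUNX1, grouped by sample title. The builds hg19 and GRCh37 and the tools Bowtie2, MACS 1.4, bcl2fastq and deepTools come from the submitters' processing notes. Neither the control library of a peak list nor the total depth is stated there. The deposited lists give for every peak, per the file headers, its count of tags, its fold enrichment (a ratio over background), its −log10 p-value, a position class, the nearest gene and a signed distance to the TSS, which was treated as a score. Lists were called per sample, and −log10 p started at 5.001.

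Histone genes were found by symbol and matched to RefSeq by symbol or synonym. Each promoter peak was ranked among the non-histone promoter peaks of its list. Overlap meant at least 1 bp. The deposited distances and the listed summits were used to rebuild TSS positions, so a TSS nearest to no peak is missing. Distance and summit do not match exactly, so positions rebuilt for the same transcript differ between peaks. Genes were named by rule: those with a RUNX1 peak, the 10 with the highest and the 3 with the lowest worst percentile of tags over the SKI lists, all HIST2, HIST3 and HIST4 members, testis-type genes, and up to 4 genes of each pathway list. Further members of each kind and NPAT, SLBP and HINFP were named after their values were seen. The members and lists were chosen with earlier results of these data known. The ranking and the overlap were tested on simulated data. Alternatives were a stricter threshold of 10 on −log10 p, lists of equal length, other ranks, other overlap and cluster rules, leaving out each SKI list and, added after seeing the data, leaving out duplicated HIST2 genes or taking only the group shared with other genes. The work was done in Python 3.11.15 with matplotlib 3.10.9, scipy 1.17.1, pandas 2.3.3 and numpy 2.4.6.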

Additional observations from a re-analysis of the deposited data

How the results depend on the processing

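With each list cut to equal length, its 5581 peaks of highest −log10 p, histone genes with a promoter peak numbered 13 in WT 1, 14 in WT 2 and 12 in CTR, against 39, 33 and 30, and those in all 3 SKI lists numbered 3 against 18 (H4 genes 2 against 10). No share of all protein-coding genes was taken at that cut. The median percentile in WT 1, WT 2 and CTR was then 66.3, 50.2 and 57.5 by tags and 27.7, 16.0 and 38.5 by fold enrichment. Counted within 1000 bp of a rebuilt TSS, the number in all 3 SKI lists was 28, also without a share of all genes. Leaving out each SKI list in turn gave 21 to 26 histone genes and 10 to 12 H4 genes in the remaining lists. In WT 1 the median percentile was 63.3 by tags per kb, and 75.8 by −log10 p in place of 61.0 by fold enrichment. RUNX1 summits within 250 bp left 2, 3 and 2 of the 5 overlapped peaks, without a share of other promoter peaks under that rule. Over all groups, although neighbours of other genes lay in the HIST2 group alone, the difference between histone and other promoters was 3.54 percentile points in WT 1, 0.0 in WT 2 and -26.7 in CTR. In WT 1 it was -19.3 with groups split at gaps over 100 kb, 36.2 with 2 Mb and -1.11 by fold enrichment. In WT 2 it was -35.3 by fold enrichment. In the HIST2 group alone, an alternative added after seeing the data, it was -26.2 in WT 1, 10.5 in WT 2 and 9.25 in CTR by tags, and -20.3, -34.8 and -37.6 by fold enrichment. Fewer peaks and genes enter the shorter lists, and for the other changes the cause was not tested. Without the duplicated HIST2 genes the median percentile by tags in CTR was 36.3 in place of 50.5, and against peaks on the same chromosomes it was 48.0. Both lie below the middle. No paired analysis was possible because no result comes from a test and a single replicate number recurs between groups. The main limits are 1 list per sample, unknown depth and naming of a single gene per peak.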
